A study of Mus musculus with 8 samples.

Results

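The collagen genes of mouse tracheas at E13.5 (embryonic day) are described here, leaving out the set that builds the cartilage fibril. They were chosen by name alone: every gene symbol made of Col, a number, a and a number that stood in both deposited count tables, without Col2a1, Col9a1, Col9a2, Col9a3, Col11a1, Col11a2 and Col27a1. That left 37 collagens of 44 such symbols, among 23478 gene symbols in each table. By class, 7 of them are fibrillar collagens, 6 are FACITs (collagens that sit on the surface of fibrils), 9 belong to basement membranes, 6 form the beaded filaments of collagen VI, and 9 fall in other classes. Cells were sorted from tracheas and labelled as chondroblasts, the cells that lay down cartilage, in 2 libraries from Bmp4flox/flox embryos with Foxg1Cre+ and in 3 libraries from Bmp4flox/flox controls. All 5 carried the γSMAeGFP reporter, which marks smooth muscle, and the sorted fraction was negative for both that reporter and the epithelial surface protein EPCAM. Whole tracheas gave 1 library of Wls flox/flox, ShhCre+ and 2 libraries of Wls flox/flox controls. Bmp4 encodes a secreted growth factor, and Wls encodes the carrier that Wnt ligands need to leave the cell that makes them. The controls of both tables carried no Cre, so an effect of the Cre allele itself and an effect of the deletion cannot be told apart. The labels do not say in which cells Foxg1Cre acts, nor whether each library stands for an embryo or litter of its own, so the p-values measure only the spread between libraries, which may be technical.

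Collagens are proteins of 3 chains wound into a triple helix, which needs the small amino acid glycine once in each triplet of residues along every chain. Fibrillar collagens have 1 long unbroken helix and pack side by side into the ropes of connective tissue. Collagens of basement membranes have a helix with many interruptions and join at their ends into sheets under epithelia and around vessels and muscle. In the trachea, fibrils of collagens I and III surround the cartilage, while cartilage itself is built on the collagens left out above.

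The classes can be read in the coding sequences. In each stretch below a GRCm38 coding sequence is printed for 30 codons, 5′ to 3′ on the coding strand, with the glycine codons in capitals. The first stretch opens the long helix of Col3a1, at codons 164 to 193, and the other stretches span a break in the helix of Col4a1, at codons 1047 to 1076, and of Col14a1, at codons 1503 to 1532.
Col3a1: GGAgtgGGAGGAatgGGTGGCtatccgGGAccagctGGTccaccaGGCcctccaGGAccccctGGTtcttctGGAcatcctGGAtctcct
Col4a1: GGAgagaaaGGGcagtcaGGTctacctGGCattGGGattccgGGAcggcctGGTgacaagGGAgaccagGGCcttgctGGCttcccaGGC
Col14a1: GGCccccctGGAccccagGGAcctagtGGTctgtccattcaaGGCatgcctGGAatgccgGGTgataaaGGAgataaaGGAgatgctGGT
Glycine stands at the head of each triplet in the Col3a1 stretch, and the spacing slips once in each of the other stretches. Counted over the whole coding sequence, the longest unbroken run of such triplets had a median of 338 triplets in the 7 fibrillar members, with a range of 216 to 344, and the longest run of all was that of Col3a1. In the 9 basement membrane members the longest run was 30 to 75 triplets, and 13 to 27 separate runs of at least 3 triplets were found per gene. The FACITs had longest runs of 32 to 113 triplets, the beaded filament chains of 37 to 87, and the other classes of 23 to 60.

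Libraries of sorted cells held 12964287 and 15462780 counts in mutants 1 and 2 and between 48876948 and 55492747 in the controls, and those of whole tracheas held between 24596836 and 31399982. The targeted genes were lower: Bmp4 was at 124, 99.2 and 121 CPM (counts per 1000000 counts of a library, scaled with TMM factors as are all single-gene values below) in the sorted controls and at 24.1 and 32.2 in the mutants (log2 fold change -2.03 ± 0.20 SE, edgeR adjusted p = 0.0033), and Wls was at 153 and 146 CPM in the tracheal controls and 65.7 in the mutant (-1.19 ± 0.18, adjusted p = 2.2e-07). The embryonic globin gene Hbb-y made up 105300 CPM of all counts in sorted mutant 1 and 914 in mutant 2, against 3.46, 7539 and 7226 in controls 1, 2 and 3. Summed chondroblast markers, 10 genes found in the tables, stood at 4665, 2935 and 2454 CPM in the sorted controls and 540 and 1442 in the mutants, and the cartilage matrix gene Matn1 was at 0 in controls 1 and 2. Smooth muscle markers, which the sort should remove, stood at 119 to 158 CPM in the controls, 1616 in mutant 1 and 268 in mutant 2. Genes that no control library expressed had counts in both mutant libraries. Over 2026 coding genes at 0 in all 3 controls the rate was 1.76 CPM per kb of exon in mutant 1 and 1.29 in mutant 2, called the background below. Spread over all exons it would make up 13.4% and 9.87% of those libraries. The marker sums of the sorted mutants, here and below, include this background.

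On average, each class of collagen took a larger share of the counts in the sorted mutant cells than in the controls. Summed over all 37 genes, collagens stood at 9685, 12260 and 8606 CPM of total counts in controls 1, 2 and 3 and at 16050 and 18580 CPM in mutants 1 and 2. Both mutants lay above every control, by 1.70 times on the means. Fibrillar collagens accounted for most of this sum, between 71.1% and 75.5% in each of the 5 libraries, and went from 6890, 9209 and 6424 CPM to 12120 and 13880 CPM (1.73 times). FACITs stood at 297, 313 and 259 CPM in the controls and 470 and 540 in the mutants (1.74 times). Basement membrane collagens stood at 370, 417 and 477 CPM and at 873 and 692 (1.86 times). Beaded filament collagens stood at 1379, 1517 and 805 CPM and at 1794 and 2493 (1.74 times), with control 3 lowest. The other classes stood at 749, 805 and 642 CPM against 794 and 979, and there mutant 1 lay inside the range of the controls (1.21 times). These sums carry no test. In sums of such samples, more cells of a type and more collagen RNA per cell cannot be told apart. With TMM scaling, which lowers the mutants relative to the controls by 0.23 on the log2 scale, the ratios of all 5 classes stayed above 1, with log2 ratios of 0.56 for fibrillar, 0.57 for FACIT, 0.68 for basement membrane, 0.55 for beaded filament and 0.04 for the other classes. The sums above include the background of the mutants. In CPM of the counts left after its subtraction, the order of the classes changed. The mutants were then at 1.917 times the controls for fibrillar, 1.865 for beaded filament, 1.804 for basement membrane, 1.69 for FACIT and 1.255 for the other classes.

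**Figure D1:**
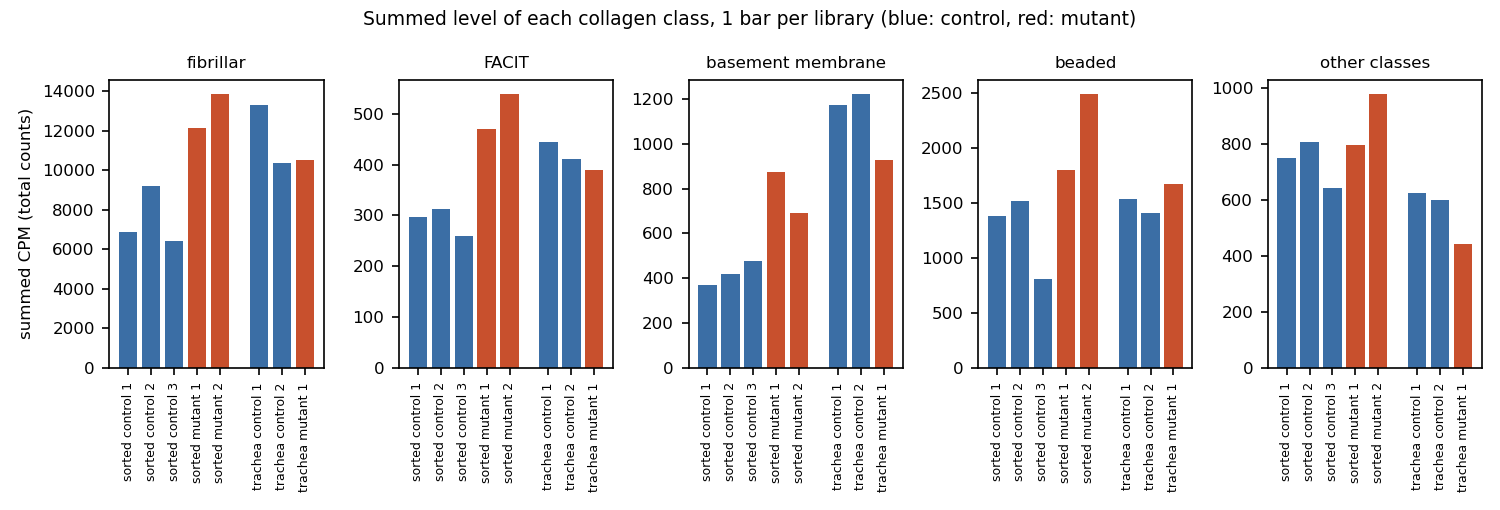
Summed CPM of total counts (y axis, linear and starting at 0) of the members of each collagen class in each of the 8 libraries, 1 bar per library, with controls in blue and mutants in red. In the first 4 classes both sorted mutants stand above the 3 sorted controls, while the tracheal mutant stands near or below its 2 controls except for the beaded filament class.

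Fibroblast markers moved with these sums. The list of 8 fibroblast and perichondrium markers holds Col1a1 and Col3a1 themselves. Its other 6 genes (Dcn, Lum, Postn, Pdgfra, Thy1 and Twist1) summed to 1244, 1623 and 1053 CPM in the sorted controls and 1836 and 3087 in the mutants, without overlap. Their part in the collagen values was not tested.

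In the gene by gene test, 20 of the 37 collagens passed as higher in the Bmp4 mutants and 0 as lower (edgeR, adjusted p under 0.05), against 39.3% and 15.6% of the 21665 genes tested (54.9% in either direction). At an unadjusted p under 0.05, which 61.2% of all genes reached, 21 were higher and 1 was lower, and DESeq2 called 23 higher and 1 lower, Col25a1. The 2 mutants lay above all 3 controls for 26 collagens and below all 3 for 2, compared with 48.2% and 25.7% of all genes. The median log2 fold change was 0.75 for the collagens and 0.53 for all genes. The calls fall into 2 kinds. For 23 collagens the mean of the controls stood above the background expected for the exon length of the gene, and 7 of them were called higher and 0 lower, against 5.64% and 28.5% of all genes of that kind. Their median was 0.49, and that of all such genes was -0.32. For the other 14 the control mean stood under the background, and 13 were called higher and 0 lower, against 79.8% and 0.0411% of such genes, with a median of 3.47 beside 4.79 for all of them. A count of 13 of 14 is near the share found for all genes with such low controls. The scale chosen bears on these values. With scaling factors taken from genes above the background, the split of all calls went from 8507 higher and 3381 lower to 9034 and 1781, the median over all genes was 0.20 higher on the log2 scale, and 24 collagens were called higher, Col1a1, Col5a2, Col7a1 and Col13a1 among them. Col12a1 and Col26a1, slightly below 0 in the values that follow, were then at 0.16 and 0.02.

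**Figure D2:**
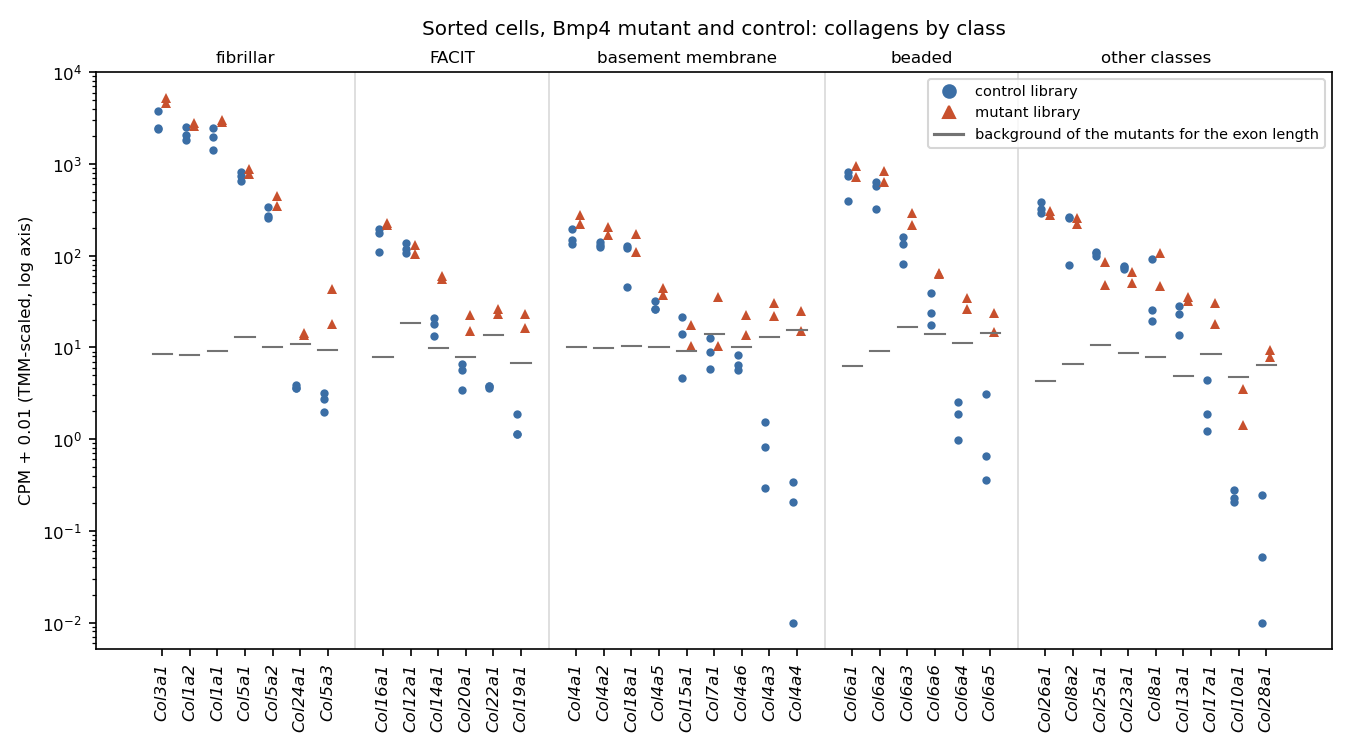
TMM-scaled CPM plus 0.01 (y axis, log scale) of each collagen in the sorted cells, by class and by control mean within a class, with 1 circle per control library, 1 triangle per mutant library, and a grey line at the mean background of the 2 mutants for the exon length of that gene, drawn before TMM scaling. Genes with controls far above the line show small shifts, and mutants of genes with controls far below it sit near or a few times above the line.

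Among the fibrillar collagens, Col3a1 was the one above the background that passed the test. It makes the single chain of collagen III, common in the walls of hollow organs and vessels (chromosome 1, 45311538 to 45349706 in GRCm38). It was at 2420, 3740 and 2487 CPM in controls 1, 2 and 3 and at 4622 and 5203 in the mutants (log2 fold change 0.77 ± 0.27, adjusted p = 0.0445). Both mutants lay above every control. Col1a1, which encodes the chain present 2 times in each molecule of collagen I, was at 1988, 2493 and 1402 CPM and at 3001 and 2895 (0.59 ± 0.27, adjusted p = 0.10). Col1a2, its partner chain, was at 2048, 2529 and 1817 CPM and at 2573 and 2801 (0.33 ± 0.22, adjusted p = 0.24). Neither passed the test, although the mutants lay above the controls for both. Collagen V is a minor component that limits the width of collagen I fibrils. Its chain Col5a1 was at 746, 821 and 651 CPM and at 876 and 769 (0.15 ± 0.18), with overlap. The chain Col5a2 was at 259, 339 and 272 CPM and at 347 and 447 (0.46 ± 0.20, adjusted p = 0.083), without overlap.

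The FACIT gene Col14a1 showed the clearest difference of any collagen whose controls stood above the background. Collagen XIV binds to the surface of collagen I fibrils (chromosome 15, 55307750 to 55520803 in GRCm38). Col14a1 was at 17.8, 21 and 13.4 CPM in the controls and at 55.8 and 60.1 in the mutants, 3.33 times higher (log2 fold change 1.74 ± 0.22, adjusted p = 0.0033). The background for its exon length was 9.85 CPM, under every one of these values. Col12a1, a relative of Col14a1, was at 117, 107.5 and 137 CPM and at 103 and 132 (-0.04 ± 0.18, adjusted p = 0.87), so the mutants lay within the controls or just under them. Col16a1 was at 176, 198 and 108 CPM and at 214 and 227 (0.46 ± 0.25, adjusted p = 0.16). Its mutants lay above the controls, but the difference did not pass the test.

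Of the basement membrane collagens above the background, 3 of 5 were called higher. Col4a1 and Col4a2 form the network found in nearly all basement membranes. Col4a1 was at 146, 133 and 197 CPM in the controls and at 275 and 219 in the mutants (0.64 ± 0.21, adjusted p = 0.0373). Col4a2 was at 143, 125 and 131 CPM and at 205 and 169 (0.49 ± 0.16, adjusted p = 0.0311). Both genes were without overlap, and in both mutant 1 was the higher mutant. Col4a5, a chain of other type IV networks, was at 26.0, 31.6 and 26.0 CPM and at 44.9 and 37.1 (0.56 ± 0.19, adjusted p = 0.0386). Its background was 9.96 CPM, between 20.0% and 24.2% of the unscaled mutant values. Col18a1, the source of the fragment endostatin, was at 45.0, 128 and 120 CPM and at 172 and 109 (0.52 ± 0.43, adjusted p = 0.32), with control 1 apart from the other controls and the groups overlapping. Its relative Col15a1 was at 21.2, 13.8 and 4.57 CPM and at 17.4 and 10.4 (0.08 ± 0.60), again with overlap. For Col15a1 the background was 57.4% and 65.5% of the unscaled values of mutants 1 and 2. Summed endothelial markers, 7 genes, stood at 24.2, 108 and 72.6 CPM in the controls and 224 and 187 in the mutants. Smooth muscle markers were highest in mutant 1, as given above. Airway epithelial markers, 10 genes, stood at 30.2 to 46.6 CPM in the controls and 128 and 80.7 in the mutants, although the sort took EPCAM-negative cells. Leukocyte markers, 5 genes, stood at 88.8 to 116 and then 212 and 192. Pericyte markers, 5 genes, stood at 382, 239 and 239 CPM in the controls and 300 and 213 in the mutants, with overlap. The background adds to the mutant values of all these sums. Shh, an epithelial marker, was at 0 in all 3 controls and had counts in both mutants. The parts of the background and of these cells in the marker sums and in the basement membrane values were not tested.

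Collagen VI is assembled from a Col6a1 chain, a Col6a2 chain and 1 longer chain, which is Col6a3 in most tissues or else Col6a4, Col6a5 or Col6a6. The pair of short chains did not pass the test. Col6a1 was at 745, 819 and 398 CPM in the controls and at 729 and 941 in the mutants (0.35 ± 0.32, adjusted p = 0.37), with overlap. Col6a2 was at 572, 637 and 326 CPM and at 638 and 834 (0.52 ± 0.30, adjusted p = 0.17), with mutant 1 barely above control 2. The long chains passed. Col6a3 was at 159, 136 and 81.6 CPM and at 215 and 295, 2.04 times higher (log2 fold change 1.03 ± 0.29, adjusted p = 0.0199). Col6a6 was at 17.6, 38.8 and 23.4 CPM and at 65.3 and 63.6, 2.42 times higher (1.28 ± 0.31, adjusted p = 0.0114). Both long chains were without overlap between groups, while control 3 was the lowest library for Col6a1, Col6a2 and Col6a3.

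In the other classes, 0 of the 6 collagens above the background passed the test, and the 2 collagens whose mutants lay below every control were both here. They are Col23a1 and Col25a1, which span the cell membrane and reach into the matrix. Col25a1 was at 106, 100 and 108 CPM in the controls and at 48.0 and 85.6 in the mutants (-0.65 ± 0.24, adjusted p = 0.0546). Col23a1 was at 76.6, 72.0 and 74.5 CPM and at 50.6 and 65.8 (-0.35 ± 0.16, adjusted p = 0.0953). In both the controls were close together and mutant 1 was the lower mutant. Col26a1, known from the developing gonads, was at 322, 380 and 293 CPM and at 307 and 279 (-0.18 ± 0.17), with overlap. Col13a1, another membrane collagen, was at 28.2, 22.8 and 13.6 CPM and at 32.2 and 35.7 (0.66 ± 0.31, adjusted p = 0.11). Col8a1 and Col8a2 encode the short chains of collagen VIII. In control 3 they went in opposite directions from the other controls: Col8a1 was at 19.3, 25.7 and 91.4 CPM and at 47.2 and 106 in the mutants (0.75 ± 0.66). Col8a2 was at 258, 262 and 79.7 CPM and at 223 and 258 (0.27 ± 0.46). Neither chain passed the test.

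With fewer libraries most of these calls were lost, while the fold changes kept their sign. Of the 7 collagens above the background that passed, Col14a1 stayed under an adjusted p of 0.05 with any of the 5 libraries left out, at most 0.0389. Col6a6 passed in 3 of the 5 leave-one-out fits, Col6a3 in 2, and Col4a1, Col4a2 and Col4a5 in 1 each. Col3a1 passed in 0 of 5, with an adjusted p of up to 0.15. Over the 5 fits the log2 fold change was 0.66 to 0.93 for Col3a1, 0.44 to 0.83 for Col4a1, 0.33 to 0.62 for Col4a2, 0.40 to 0.69 for Col4a5, 0.78 to 1.24 for Col6a3, 1.05 to 1.57 for Col6a6 and 1.58 to 1.82 for Col14a1. Over all 37 collagens, 15 to 18 were called higher and 0 lower without a control library. Of the 21405 to 21498 genes tested there, 7622 to 8024 were called higher and 2296 to 2601 lower. Fits with 1 mutant library left called fewer collagens higher, and fewer genes, than the fit of all libraries. In them Col23a1 was at -0.19 without mutant 1 and -0.55 without mutant 2, and Col25a1 at -0.31 and -1.12.

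The 14 collagens under the background are chains that the sorted control cells hardly expressed. In the fibrillar class these were Col24a1, at 3.55 to 3.91 CPM in the controls and 13.6 and 14.4 in the mutants, and Col5a3, at 1.95 to 3.18 and then 43.1 and 18. In the FACIT class Col20a1 was at 3.43 to 6.53 CPM and then 22.3 and 15.1, Col22a1 at 3.57 to 3.79 and then 26.4 and 22.9, and Col19a1 at 1.11 to 1.85 and then 22.9 and 16.1. Of the chains of basement membranes, Col4a6 was at 5.65 to 8.29 CPM and then 22.3 and 13.8. Col4a3 and Col4a4 form, with Col4a5, the network of the mature kidney filter. Col4a3 was at 0.287 to 1.52 CPM and then 30.7 and 22.3, and Col4a4 at 0 to 0.332 and then 25.0 and 14.9. Col7a1, the anchoring fibril of skin, was at 5.80 to 12.6 CPM and then 35 and 10.4, with overlap, and was the 1 of the 14 that was not called (adjusted p = 0.073). Of the alternative long chains of collagen VI, Col6a4 was at 0.976 to 2.52 CPM and then 26.4 and 34.4, and Col6a5 at 0.352 to 3.11 and then 23.9 and 14.6. Col17a1, which anchors skin cells to their basement membrane, was at 1.21 to 4.39 CPM and then 30.6 and 17.8. Col28a1 was at 0 to 0.234 CPM and then 9.42 and 7.93, and Col10a1, the collagen of hypertrophic cartilage, at 0.195 to 0.270 and then 3.50 and 1.42.

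These mutant values can be set beside the background of each library for the same exon length. In unscaled CPM, Col10a1 was at 0.674 and 0.399 times the background of mutants 1 and 2, Col4a4 at 1.49 and 1.31 times, Col28a1 at 1.34 and 1.66 times, and Col24a1 at 1.14 and 1.78 times. For these genes the mutants held about as many counts as, or fewer than, genes that are silent in the controls. Higher values were those of Col5a3 at 4.24 and 2.60 times, Col6a4 at 2.15 and 4.12 times, Col19a1 at 3.11 and 3.21 times and Col17a1 at 3.29 and 2.81 times. Among the 2026 silent genes the rate ran from 0 to 5.62 CPM per kb in mutant 1 and from 0 to 4.14 in mutant 2, from the 5th to the 95th percentile, and each of these 4 collagens was above the 95th percentile in 1 mutant and under it in the other: Col5a3 was at 7.45 and 3.36 CPM per kb, Col6a4 at 3.78 and 5.33, Col17a1 at 5.78 and 3.63, and Col19a1 at 5.45 and 4.15. Whether these chains were transcribed in the mutants cannot be told apart from the background.

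**Figure D3:**
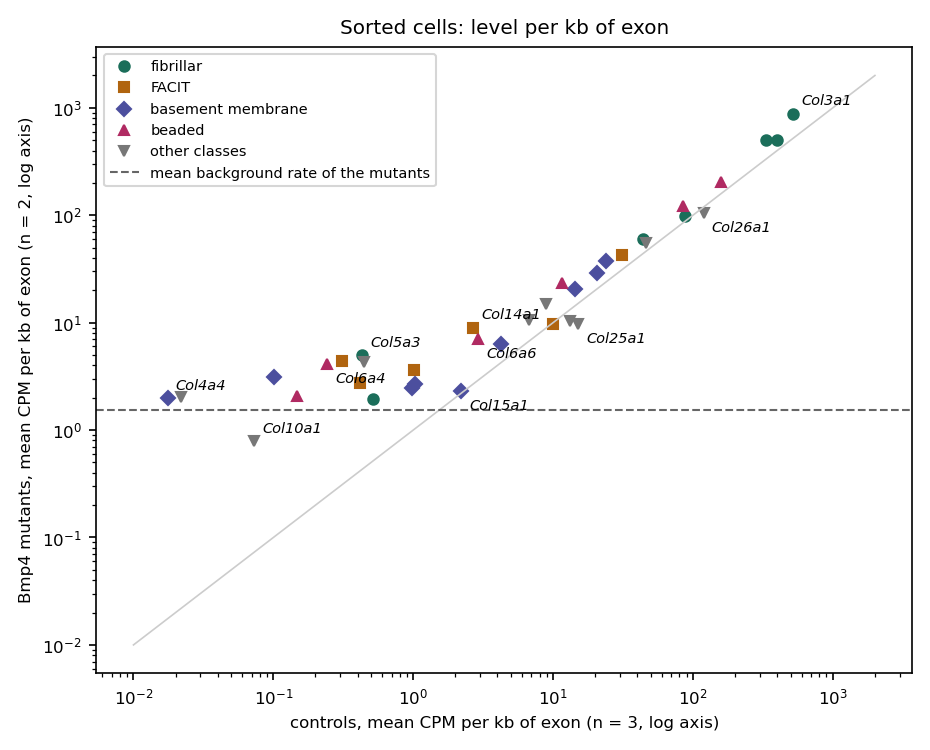
Mean TMM-scaled CPM per kb of exon of each of the 37 collagens in the 3 sorted controls (x axis) and the 2 Bmp4 mutants (y axis), both on log scales, with a solid line at equal values and a dashed line at the mean background rate of the mutants before scaling. Collagens above the dashed line in the controls lie near the solid line or above it. Col14a1 and Col6a6 lie above the solid line, with control means of 2.69 and 2.90 CPM per kb, not far above the dashed line. Collagens under the dashed line in the controls level off near it, with Col10a1 below.

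With the background subtracted from each library, the log2 fold changes of the 23 collagens with controls above it shifted upward, except that of Col15a1. Library sizes and TMM factors were computed anew on the subtracted counts, so these values also hold a change of scale. For Col1a1 the background was only 0.328% and 0.232% of the unscaled values of mutants 1 and 2, and its removal alone can only lower them. The test on subtracted counts covered 30 members, of which 13 were called higher and 0 lower (edgeR), against 8.52% and 2.91% of the 13694 genes it covered. At an unadjusted p under 0.05, 20 were higher and 0 lower, where 4074 of the 13694 genes passed in either direction. The median was 0.91, beside -0.02 for all genes covered. Of these, 7 entered only through their mutant values, and Col5a3, Col6a4, Col17a1 and Col19a1 among the 13 are of that kind. The other 9 were Col1a1 at 1.07 ± 0.26, Col1a2 at 0.81 ± 0.19, Col3a1 at 1.24 ± 0.24, Col5a2 at 0.89 ± 0.18, Col14a1 at 1.97 ± 0.22, Col4a1 at 1.07 ± 0.23, Col4a2 at 0.91 ± 0.16, Col6a3 at 1.41 ± 0.29 and Col6a6 at 1.44 ± 0.33 on the log2 scale, with adjusted p between 0.0211 and 0.0491. Col4a5 was at 0.68 ± 0.20 and no longer passed (adjusted p = 0.079). Of the 23 members with controls above the background, 20 had a log2 fold change above 0 and 3 below. The median of the 23 was 0.89, beside -0.10 for all genes of that kind. Of those 11610 genes, 239 were called higher and 398 lower. The 3 below 0 were Col15a1 at -0.76 ± 0.72, Col23a1 at -0.10 ± 0.16 and Col25a1 at -0.41 ± 0.27, none of them called. The subtracted calls depended on the genes and libraries entered. Among genes above 3 times the background in the mean of all 5 libraries, 1 of 22 members was called higher and 0 lower. Of the 9378 genes entered, 0.469% were called higher and 0.224% lower. The 1 call was Col14a1 (edgeR adjusted p = 0.0469), which entered only through its mutants. Its control mean of 17.4 CPM stood under 3 times its background of 9.85 CPM. At an unadjusted p under 0.05, 15 members were higher, and 2085 of the 9378 genes passed in either direction. In the fits without 1 control that follow, 2931 to 3060 genes passed at that p. Leaving out mutant 1 or any 1 of the controls left 0 members called, with 17 to 21 higher at an unadjusted p under 0.05. In those fits 3 genes of any kind were called without mutant 1, and 0 in each fit without a control. Leaving out mutant 2 left 11 members higher and 1 lower, Col25a1, among 2682 genes called.

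**Figure D4:**
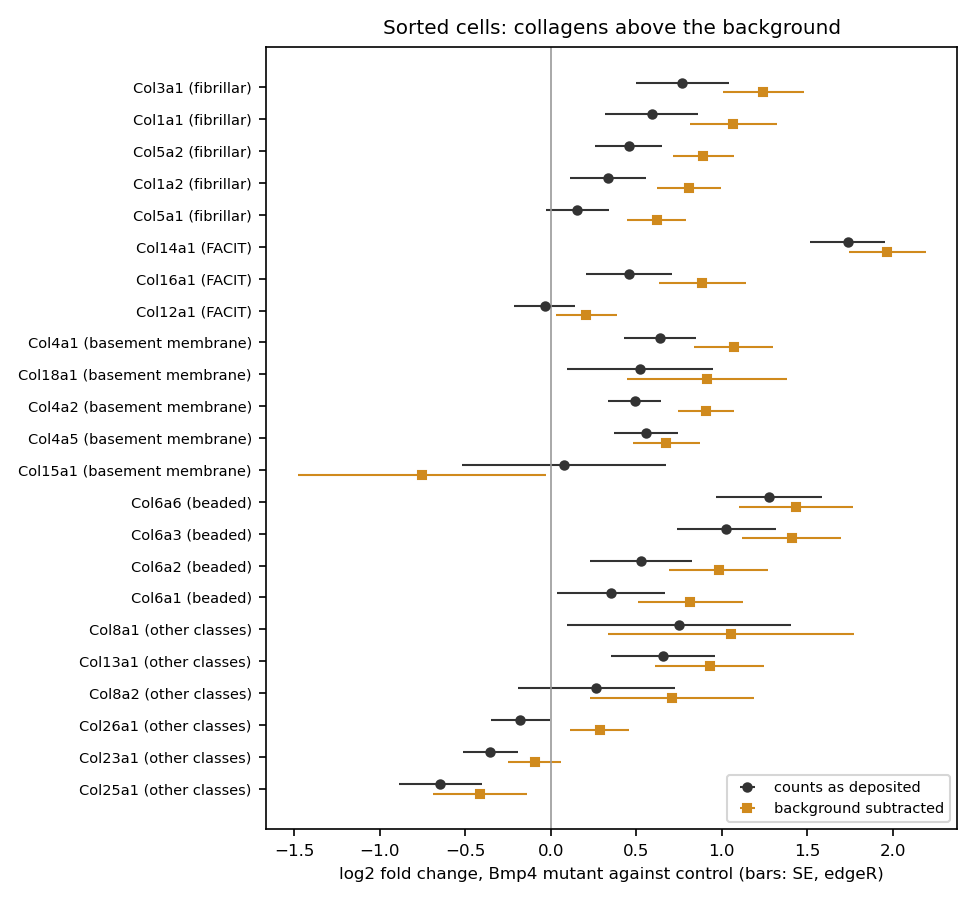
log2 fold change of the Bmp4 mutants against the controls (x axis, linear) for the 23 collagens whose sorted controls stand above the background, from the counts as deposited (circles) and after the background was subtracted (squares), with bars of 1 SE from edgeR. Col14a1, Col6a6 and Col6a3 lie furthest to the right in both, and Col25a1 lies to the left of 0 in both.

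The order of the collagens was compared per kb of exon. In the sorted controls the mean TMM-scaled level was 518 CPM per kb for Col3a1, 399 for Col1a2 and 331 for Col1a1, with ranges over the 3 libraries of 435 to 672, 340 to 473 and 236 to 420, so these neighbours overlap. Col6a1 followed at 160, Col26a1 at 119, Col5a1 at 87.9 and Col6a2 at 85.2 CPM per kb. Chains that join in 1 molecule are expected at fixed ratios in the protein, and their transcripts were compared in the same way, in unscaled CPM per kb within each library. Col1a1 stood to Col1a2 at 0.875, 0.889 and 0.696 in the controls and at 1.05 and 0.932 in the mutants, so both mutants were above every control. Col4a1 stood to Col4a2 at 1.0, 1.04 and 1.46 and at 1.31 and 1.26, with overlap. These genes share 1 promoter region and are read away from each other, with starts that overlap by 22 bases on chromosome 8. Col6a1 stood to Col6a2 at 1.91, 1.89 and 1.79 in the controls and 1.67 and 1.65 in the mutants. Col6a1 stood to Col6a3 at 12.4, 16.0 and 12.9 in the controls and at 8.97 and 8.43 in the mutants, and the groups did not overlap. Col5a1 stood to Col5a2 at 2.27, 1.91 and 1.89 and at 1.99 and 1.35, with overlap. Col8a2 stood to Col8a1 at 15.7, 12 and 1.03 and at 5.58 and 2.88, where control 3 alone spans the whole range. These ratios carry no test.

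Genes that process collagen were called in both directions. A list of 32 such genes (prolyl and lysyl hydroxylases, chaperones, propeptide cleaving enzymes and cross-linking lysyl oxidases) had 5 genes higher and 7 lower in the sorted mutants, against 39.3% and 15.6% of all genes, with a median log2 fold change of -0.10 beside 0.53. After the background was subtracted, 2 of 28 were higher and 1 lower, against 8.52% and 2.91%. The largest called change among those with controls above the background was that of Adamts2, which removes the amino-terminal propeptide of fibrillar collagens, at 14.9 ± 4.31 CPM (SD, n = 3) in the controls and 51.9 and 30.8 in the mutants (log2 fold change 1.48 ± 0.33, adjusted p = 0.0079). Loxl4 and Colgalt2 had larger changes, of 1.81 ± 0.42 and 1.78 ± 0.50, from controls under the background. Of 24 receptors and matrix partners, 11 were higher and 1 lower, near the 39.3% of all genes called higher, with a median of 0.73, and after subtraction 5 of 20 were called, each of them higher, against 8.52% of all genes. The 3 largest were Gp6, Itga10 and Itga2, a platelet receptor of collagen and 2 integrin chains, with control means of 0.0416, 2.34 and 2.06 CPM, all under the background.

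In the whole trachea of the Wls mutant, most collagens were close to the controls. Fibrillar collagens summed to 13290 and 10370 CPM in the controls and 10520 in the mutant, which lies between them. FACITs summed to 444 and 412 CPM and 390, and beaded filament collagens to 1534 and 1408 and 1667. Basement membrane collagens summed to 1176 and 1225 CPM in the controls and 930 in the mutant, and the other classes to 624 and 598 and 442. For both of these the distance from the mutant to the nearer control exceeded that between the controls. The same held, narrowly, for the beaded filament collagens, where the mutant lay above both controls. Of 35 collagens tested (Col10a1 and Col28a1 had too few counts), 1 was called higher and 3 lower (edgeR), against 1.88% and 2.39% of 15815 genes (4.27% in either direction). DESeq2 called 0 higher and 3 lower, with 1 higher and 6 lower at an unadjusted p under 0.05. With 1 mutant library the test assumes that it varies like the controls. Over all 37 collagens, the mutant lay above both controls for 4 and below both for 22, compared with 36.9% and 37.6% of the genes tested. Among the 4 was the untested Col10a1, with 1 and 0 counts in the controls and 3 in the mutant. The median log2 fold change of the collagens tested was -0.25 beside -0.01 for all genes.

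**Figure D5:**
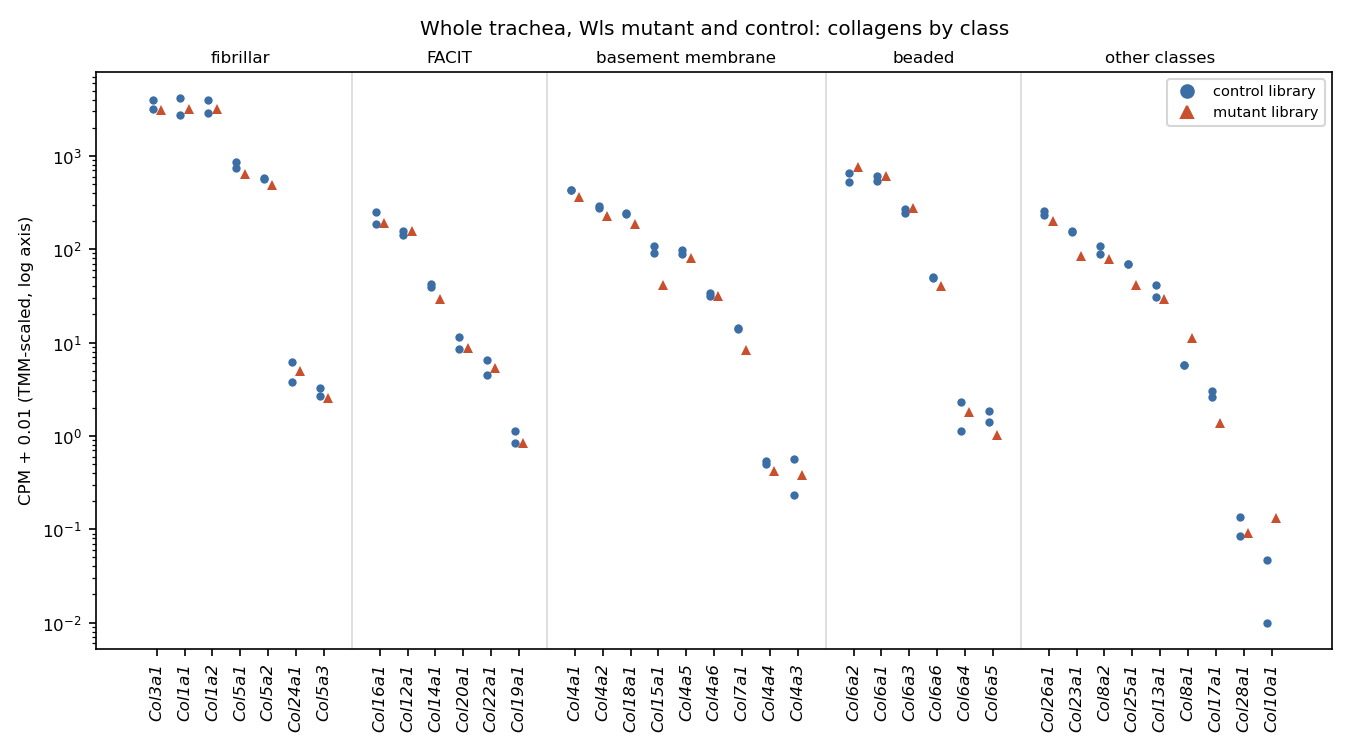
TMM-scaled CPM plus 0.01 (y axis, log scale) of each collagen in the whole tracheas, by class and by control mean within a class, with 1 circle for each of the 2 control libraries and 1 triangle for the Wls mutant library. Col15a1, Col23a1 and Col25a1 stand clearly under their controls and Col8a1 above its controls, while most other triangles lie on or just under the circles.

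The starts of the 4 called genes are printed here because these genes were called in different directions. Each line holds the 120 bases before the start of the gene in RefSeq, build GRCm38.p6, on the strand of the gene, 5′ to 3′. They span chr4:47207892-47208011 for Col15a1, chr11:51289800-51289919 for Col23a1, chr3:130180725-130180844 for Col25a1 and, on the minus strand, chr16:57754738-57754857 for Col8a1. The stretch of Col25a1 lies inside the gene as annotated by GENCODE, which spans 130131501 to 130599877. Capitals mark GC boxes, GGGCGG on either strand.
Col15a1: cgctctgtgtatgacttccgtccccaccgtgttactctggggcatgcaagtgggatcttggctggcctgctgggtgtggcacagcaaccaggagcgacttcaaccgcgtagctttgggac
Col23a1: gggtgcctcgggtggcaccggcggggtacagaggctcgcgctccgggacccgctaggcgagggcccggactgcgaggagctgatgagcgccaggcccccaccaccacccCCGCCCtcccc
Col25a1: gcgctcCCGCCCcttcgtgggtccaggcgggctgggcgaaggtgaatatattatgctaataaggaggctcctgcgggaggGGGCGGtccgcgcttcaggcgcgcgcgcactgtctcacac
Col8a1: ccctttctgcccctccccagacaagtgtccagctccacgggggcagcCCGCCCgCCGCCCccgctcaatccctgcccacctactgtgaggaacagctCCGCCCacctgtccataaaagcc
GC boxes stood in 3 of these 4 stretches. In the whole RefSeq window, from 250 bases before to 50 after a start, 30 of the 37 members were found, with 32 windows. The letters GGGCGG stood on either strand in 19 of the 32 windows, against 35.7% of 32851 windows of all genes, CCAAT in 11 against 37.4%, TATAAA in 4 against 13.6%, GGCGCC in 5 against 11.9% and CTTTGAT in 0 against 3.70%. A match is only a description of these letters.

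Col15a1 had the largest change of the 35 members tested in the tracheas. Collagen XV lies at the outer face of the basement membranes of muscle, nerve and capillaries (chromosome 4, 47208161 to 47313167 in GRCm38). It was at 90.6 and 109 CPM in the controls and 41.5 in the Wls mutant, a log2 fold change of -1.27 ± 0.19 (edgeR adjusted p = 2.9e-08). It was also the 1 collagen of the 37 past a rule of size (at least 1 on the log2 scale, outside the controls by more than they differ, and a mean of at least 3 in log2 CPM), which 1.06% of 10897 genes passed. Col23a1 was at 152 and 155 CPM in the controls and 84.0 in the mutant (-0.87 ± 0.18, adjusted p = 0.00027). Col25a1 was at 68.8 and 69.2 CPM and at 41.0 (-0.75 ± 0.18, adjusted p = 0.0031). For all 3 the mutant lay under both controls. Col8a1 was at 5.79 and 5.69 CPM in the controls and 11.1 in the mutant (0.95 ± 0.27, adjusted p = 0.0212), and this call was lost with DESeq2 (adjusted p = 0.31). Endothelial markers summed to 387 and 448 CPM in the tracheal controls and 305 in the mutant, smooth muscle markers to 1952 and 1690 and 2713, and epithelial markers to 812 and 689 and 1116. Their part in these values was not tested.

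The fibrillar chains of the tracheas did not pass the test. Col3a1 was at 3982 and 3182 CPM in the controls and 3086 in the mutant, just under both. Col1a1 was at 4148 and 2753 CPM and 3180, and Col1a2 at 3930 and 2876 and 3200, both inside the controls. Col5a1 was at 869 and 735 CPM and 640 (-0.33 ± 0.22), and Col5a2 at 584 and 566 and 483 (-0.25 ± 0.21). The fibril surface collagens Col12a1, at 143 and 158 CPM and then 158, and Col16a1, at 251 and 187 and then 191, overlapped the controls. Col14a1 was at 42.4 and 39.8 CPM and 29.3 (-0.49 ± 0.19, adjusted p = 0.14), and Col20a1 at 8.48 and 11.5 and 8.81.

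All 9 basement membrane collagens had a log2 fold change under 0 in the tracheas, although only Col15a1 passed. The same sign was found for all 7 fibrillar collagens and for 29 of the 35 members tested, against 8189 of 15815 genes. Col4a1 was at 429 and 429 CPM in the controls and 359 in the mutant (-0.26 ± 0.20), and Col4a2 at 289 and 277 and 228 (-0.31 ± 0.19). Col4a5 was at 97.7 and 88.9 CPM and 80.9, and Col4a6 at 34.0 and 31.7 and 31.5. Col18a1 was at 241 and 244 CPM and 186 (-0.38 ± 0.19, adjusted p = 0.33). Col7a1 was at 14.1 and 13.9 CPM and 8.36 (-0.74 ± 0.24, adjusted p = 0.0577), just short of the threshold. The kidney chains Col4a3 and Col4a4 were between 0.224 and 0.559 CPM in every tracheal library. They were also low in the sorted controls.

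Among the beaded filament chains of the tracheas, Col6a2 was at 653 and 520 CPM in the controls and 755 in the mutant (0.37 ± 0.21, adjusted p = 0.46). Col6a1 was at 611 and 533 CPM and 602, and Col6a3 at 245 and 267 and 279. Col6a6 was at 48.9 and 50.5 CPM and 40.1 (-0.31 ± 0.18). None of the 6 chains passed the test. Of the other classes, Col26a1 was at 256 and 230 CPM and 199, Col8a2 at 108 and 88.2 and 78.9, and Col13a1 at 41.4 and 31.1 and 29.5, each below both controls without passing. The 7 tested collagens not yet named for the tracheas (Col5a3, Col24a1, Col19a1, Col22a1, Col6a4, Col6a5 and Col17a1) stayed under 10 CPM in every tracheal library. Collagen processing genes were called in 3 of 32 cases in the tracheas, each of them lower, against 2.39% of all genes: Bmp1, a protease that removes the carboxy-terminal propeptide of fibrillar collagens, at 386 ± 54.7 CPM (SD, n = 2) in the controls and 211 in the mutant (-0.87 ± 0.20, adjusted p = 0.0015), Pcolce2, an enhancer of that cleavage, at -1.35 ± 0.37, and Loxl3, a lysyl oxidase, at -0.63 ± 0.20. Of 23 receptors and partners tested, the fibril-binding proteoglycan gene Fmod (0.99 ± 0.17) and the collagen III receptor gene Gpr56 (0.91 ± 0.18) were higher, and the basement membrane linker gene Nid2 (-0.59 ± 0.18) was lower, against 1.88% and 2.39% of all genes.

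Set side by side, 0 collagens were called in both tables. Of all genes tested, 54.9% were called in the sorted cells and 4.27% in the tracheas. The share of all genes called in both was not counted. Sorted cells and whole tracheas were amplified with different kits, and values of 1 kind were not tested against the other. Col14a1 had a log2 fold change of 1.74 in the sorted Bmp4 mutants and -0.49 in the Wls mutant trachea, Col3a1 of 0.77 and -0.21, Col4a1 of 0.64 and -0.26, Col6a3 of 1.03 and 0.13, and Col6a6 of 1.28 and -0.31. Col15a1 was at 0.08 (-0.76 ± 0.72 after subtraction of the background) and -1.27, and Col8a1 at 0.75 and 0.95. Col23a1 (-0.35 and -0.87) and Col25a1 (-0.65 and -0.75) had values under 0 in both, and were called in the tracheas. The sorted values depended on the scale: after subtraction Col23a1 was at -0.10 ± 0.16 and Col25a1 at -0.41 ± 0.27. The 7 cartilage collagens left out of the set were called lower in 5 of 7 cases in each table, against 15.6% of all genes in the sorted cells and 2.39% in the tracheas, with median log2 fold changes of -1.82 in the sorted mutants and -1.57 in the Wls mutant. After the background was subtracted from the sorted cells their median was -1.40, and 0 of 7 passed the test, where 2.91% of all genes were called lower, with 5 lower at an unadjusted p under 0.05.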

How the data were processed

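RNA was measured in 5 libraries of sorted tracheal cells and 3 of whole trachea. The authors deposited whole-number counts per gene, 1 table for each kind of sample, used here as deposited. RNA came from a Trizol extraction, per the labels' protocols, and was amplified with a SMART-Seq v4 kit (sorted cells) or an Ovation v2 kit (tracheas) and made into Nextera XT libraries. Tools named in the submitters' processing notes, without versions or roles, are Bowtie2, Cufflinks and DESeq, plus Trim Galore for the sorted cells, and the genome build named is mm10. How counts were made, with which strand setting and annotation, is not given in the sources used here, so reads of overlapping genes (such as those of Col4a1 and Col4a2) or antisense genes may be shared.

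The main test was the quasi-likelihood F test of edgeR 4.0.16 in R 4.3.3, with TMM factors, filterByExpr and a threshold of 0.05 on p after Benjamini-Hochberg adjustment across every gene tested, each table on its own, with 3 residual degrees of freedom in the sorted cells and 1 in the tracheas. Sums of genes are CPM of total counts. Exon lengths are the union of whole exons, untranslated parts included, of GENCODE basic transcripts on GRCm38, the assembly of mm10. For coding genes only coding transcripts entered. A length was found for 23119 of 23478 symbols. The background is the summed count over summed exon length of coding genes at 0 in all 3 sorted controls, without olfactory and vomeronasal receptors. It was subtracted per library in an alternative test. Other alternatives were DESeq2 1.42.0, limma-voom (limma 3.58.1), RLE factors, no filter, factors from genes above the background, the replicate number as a block, and leaving out each library. The replicates of a group had a chi-square per degree of freedom of 23.4 to 184, above counting noise, so no pair was taken for 1 library deposited again. The edgeR test was checked on simulated counts. Depth differed between the groups of sorted cells, and reads carry no molecular identifiers.

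The members, their classes and the gene lists were chosen with earlier results of these data known. Values per library are given for members that reach 10 CPM in a library of the table described or that were called, and for the lists the 3 largest called changes are named. Promoter sequences are from RefSeq and coding sequences were built from the GENCODE annotation.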

Additional observations from a re-analysis of the deposited data

How the results depend on the processing

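In the sorted cells 11888 genes were called in all. DESeq2 called 1 collagen lower (Col25a1) besides 23 higher. After the background was subtracted, 1566 genes and 13 collagens were called higher or lower, all 13 higher. Limits set after seeing the data, at 3 times the background, left 65 genes and 1 collagen, Col14a1, which entered only through its mutants. The subtracted test without 1 library, also added after seeing the data, called 0 to 2682 genes, 0 to 11 collagens higher and 0 to 1 lower, the upper values without mutant 2. Leaving out 1 library from the deposited counts gave 3595 to 10478 genes, 10 to 18 collagens higher and 0 to 2 lower, lowest without mutant 1, where the median of all genes moved by -0.23. Scaling factors from genes above the background moved that median by 0.20 and called 24 collagens higher. RLE factors (20), no filter (20) and limma-voom (18) changed the count little. With the replicate block, 4 genes and 0 collagens were called in edgeR, with 17 collagens higher at an unadjusted p under 0.05; the labels share only replicate numbers, and same-numbered libraries deviated with correlations of -0.17 and -0.11, so the numbers are not taken as pairs. The FACIT sum had a log2 ratio of 0.57 with TMM scaling against 0.80 in total counts. In the tracheas DESeq2 called 268 genes against 676, and 3 collagens against 4, the loss being Col8a1. For single collagens, 658 of 817 alternative values kept their side of the threshold, or had no test and moved by less than 1 SE, 113 lost their call, 19 gained one, 27 that were uncalled or without a test moved by at least 1 SE, and 0 reversed a called direction. Causes of these changes were not tested. No level can be given for collagens near the background of the mutants.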
